A study of Mus musculus with 3 samples.

Results

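The TNF superfamily ligands are described here across the T cells of 2 mouse tumours. The 8 ligands were chosen by gene symbol, and all 8 were found among the 31053 genes measured: Tnf, Fasl, Cd40lg, Tnfsf8 (CD30 ligand), Tnfsf11 (RANKL), Tnfsf14 (LIGHT), Tnfsf10 (TRAIL) and Ltb (lymphotoxin β). C57BL/6 mice carried subcutaneous tumours of B16-Ova, a melanoma line, or MC38-Ova, a colon carcinoma line, both expressing ovalbumin. Tumours were taken on day 14 and T cells were sorted as TCRβ+ CD3+ CD90.2+ CD11b−, tagged by tumour with 1 hashtag each, and read together in 1 droplet capture (10x Genomics, 5′ chemistry). Antibody tags measured surface PD-1 and Tim-3, and an anti-biotin tag measured bound L-Pha, a lectin that prefers branched N-glycans. The design thereby sets surface glycans beside the transcripts of the same cells. How many mice gave cells to a hashtag is not stated, so each tumour is 1 pool of cells. The labels name no other treatment or allele, and cells of tumour-free tissue were not analysed here.

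TNF superfamily ligands are mostly trimeric type II membrane proteins, and several can be shed into a soluble form. They bind TNF receptor superfamily members, which signal through TRAF adaptors to NF-κB and MAP kinases or, for receptors with a death domain such as Fas, to caspases. Activated T cells use them to kill targets (Fasl, Tnfsf10, Tnf), to license B cells and dendritic cells (Cd40lg), and to act on stromal and myeloid cells (Ltb, Tnfsf14, Tnfsf11).

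Cells had to hold at least 500 genes, at most 10% mitochondrial UMIs (unique molecular identifiers, 1 per captured transcript molecule), and at least 150 UMIs of their own hashtag, 3 times the other hashtag or more. Of 19912 barcodes, 18429 passed the RNA filters and 14992 fell in a pool, 6585 from B16-Ova and 8407 from MC38-Ova. Classes were set by transcripts alone: CD8 (1792 and 2544 cells, B16-Ova first), CD4 (753 and 736) and Treg, defined by Foxp3 (777 and 960). Innate-like cells (455 and 780) were defined by Cd3e with Fcer1g or Tyrobp, without Cd4 and Foxp3 and below the CD8 threshold. The other 6195 cells met no class. They held 38.7% to 56.1% of a pool's UMIs of each ligand. The 8 sums of class and pool held 2592067 to 20937848 RNA UMIs, with 4107 to 7358 UMIs in the median cell, so classes differ in depth. Levels are given as CPM, the UMIs of the ligand scaled to a common total of UMIs, and intervals are exact 95% intervals that cover counting error only, because cells of 1 pool are not replicates. Fewer producing cells and less RNA per cell cannot be told apart in such a sum, so shares of cells are given beside the levels.

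The classes were checked on marker genes that their rules had not used. Cd3d stood at 937 to 1393 CPM in the 8 sums. Ctla4, a checkpoint receptor high in Treg cells, stood at 1813 and 1471 CPM in Treg cells against 100.3 to 697 CPM elsewhere, and Il2ra at 294 and 554 CPM against 34.3 to 125 CPM. Ikzf2 separated the classes less, with 569 and 512 CPM in Treg cells against up to 432 CPM in innate-like cells. Klrb1c, an NK receptor, stood at 136 and 128 CPM in innate-like cells against 6.04 to 24.1 CPM elsewhere. Ncr1, Klrk1 and Xcl1, the other innate-like markers outside the rule, were also highest in innate-like cells in both pools. Transcripts of other cells were also present and moved with the pools. The 5 melanoma genes summed to 244 to 449 CPM in the CD8, CD4 and innate-like cells of B16-Ova against 29.9 to 35.2 CPM in those of MC38-Ova. In Treg cells the order was the opposite, 33.6 CPM in B16-Ova and 188 CPM in MC38-Ova. The 6 macrophage genes ranged from 27.8 to 201 CPM, highest in B16-Ova Treg cells, with Adgre1 at 0 in B16-Ova CD4 and innate-like cells. The 5 dendritic cell genes ranged from 25.5 to 221 CPM, higher in MC38-Ova in each class. The 4 stroma genes reached 225 to 230 CPM in MC38-Ova Treg and innate-like cells. Both hashtags reached the minimum in 16.5% of filtered barcodes, and 657 of these 3045 were put in a pool by the ratio. Droplets with 2 cells and free hashtag were not told apart, and droplets with 2 cells of a pool cannot be seen by hashtag. Some cells held 3 or more UMIs of other cells' markers (2.52% to 14.2% of a class and pool). The levels, class contrasts and tumour ratios of the 8 ligands were therefore also taken without them. Subsets, tag quartiles, shares of cells and the other gene lists were not. In 16 melanoma-like barcodes, a reference for free RNA, Tnf, Fasl, Tnfsf8, Tnfsf11, Tnfsf14 and Tnfsf10 had 0 UMIs (an exact upper bound of 6.01 CPM each), Cd40lg stood at 4.89 CPM and Ltb at 6.51 CPM. The melanoma-like barcodes had a median of 26947 RNA UMIs, deeper than the median cell of each class. Free RNA weighs less in the CPM of deep barcodes, so in T cells it may exceed these values. In 8 macrophage-like barcodes Tnf stood at 303 CPM (161 to 519), the only ligand with more than 3 UMIs there.

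The classes differed in their ligands, with overlaps. CD4 cells held the most Cd40lg, Tnfsf8 and Tnfsf11. CD8 and innate-like cells were higher in Fasl than the mean of the other classes. Fasl in CD4 cells was higher by about as much as in innate-like cells, without passing the test. Treg cells were high in Ltb and low in Fasl, Tnfsf8 and Tnfsf14. Innate-like cells had little Cd40lg and Tnfsf11. CD8 cells were low in Cd40lg too, and in B16-Ova below innate-like cells (13.9 against 28.2 CPM). These class differences were tested on the 8 sums with edgeR's quasi-likelihood test, the pool as a block, each class against the mean of the other 3, with Benjamini-Hochberg adjustment over 11188 genes at 0.05. The 4 contrasts share the same sums. In CD4 cells 3 of 8 ligands passed, all higher, where 2.43% of all genes passed. In CD8 cells 2 of 8 passed, 1 in each direction, beside 8.71% of genes. In Treg cells 4 of 8 passed, 1 higher and 3 lower, beside 15.9%, and in innate-like cells 4 of 8, 2 in each direction, beside 15.3%. The median log2 difference of the 8 ligands was 0.75 in CD4, −0.21 in CD8, −0.18 in Treg and −0.02 in innate-like cells, where that of all genes lay between −0.01 and 0.01. Without cells that held other cells' markers, 1 ligand was called higher and 4 lower in CD8 cells, and 4 higher in CD4 cells. The counts in Treg and innate-like cells did not change, and the share of all genes was not taken there. Both sums of a class come from different tumours, so these p-values measure spread between the pools of 1 capture and not between mice.

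**Figure D1:**
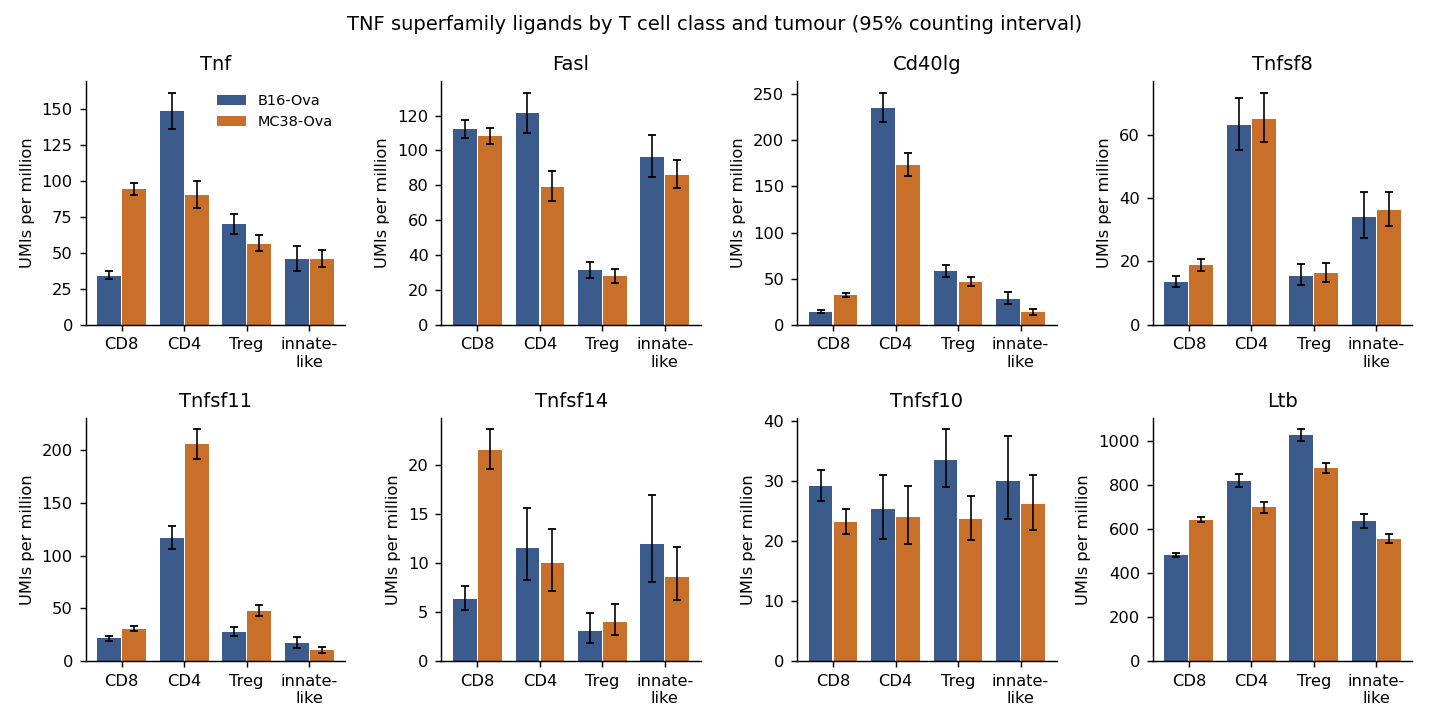
Level of each ligand (CPM, linear axes from 0, a different scale in each panel) in CD8, CD4, Treg and innate-like cells of the B16-Ova (blue) and MC38-Ova (orange) pools. Bars are summed UMIs of 1 pool and whiskers exact 95% counting intervals. Cd40lg, Tnfsf8 and Tnfsf11 are tallest in CD4 cells of both pools, and Tnf in CD8 cells stands at 34.2 CPM in B16-Ova and 94.8 CPM in MC38-Ova.

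Between tumours the ligands did not move as a block: CD8 cells of MC38-Ova had more Tnf, Cd40lg and Tnfsf14, while CD4 cells of MC38-Ova had less Tnf and Fasl and more Tnfsf11. With 1 pool per tumour there is no test. A gene was counted where its ratio of MC38-Ova to B16-Ova passed 1.5-fold either way, among genes with at least 100 UMIs in both sums together. In CD8 cells 3 of 8 ligands passed, all higher in MC38-Ova, and 11.2% of all genes passed. In CD4 cells 3 of 7 passed, 1 higher and 2 lower, beside 6.39% of genes. In Treg cells 1 of 7 passed, higher, beside 8.54%, and in innate-like cells 2 of 7 passed, both lower, beside 5.92%. Tnfsf14 was under 100 UMIs outside CD8 cells. The median ratio of all genes was 0.98 to 1.00 in the 4 classes. Without the cells that held other cells' markers the counts were 4, 2, 1 and 2 in CD8, CD4, Treg and innate-like cells. The share of all genes is not given on that condition, so a changed count cannot be set against it.

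**Figure D2:**
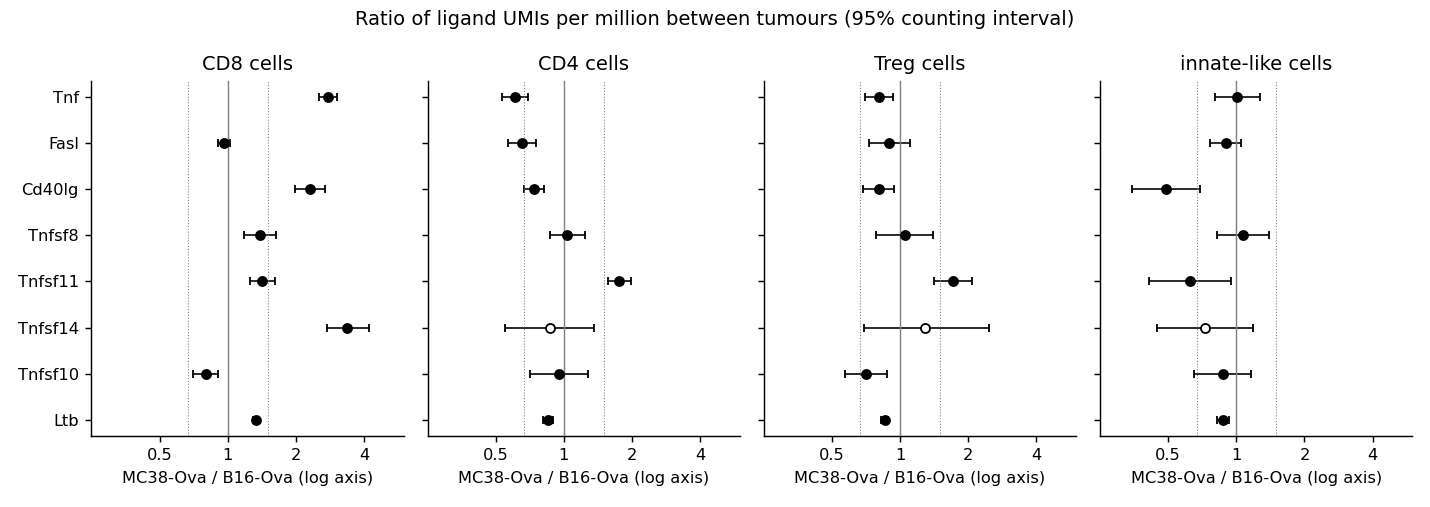
Ratio of each ligand's CPM in MC38-Ova over B16-Ova (log axis) in the 4 classes. Points are ratios of 1 pool each, whiskers exact conditional 95% intervals, dotted lines 1.5-fold either way, and open points ligands under 100 UMIs. In CD8 cells Tnf, Cd40lg and Tnfsf14 lie to the right at 2.77, 2.30 and 3.38, and in CD4 cells Tnf and Fasl lie to the left at 0.61 and 0.65.

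Tnf, the founding cytokine of the family, activates endothelium and myeloid cells and can kill through its receptor Tnfrsf1a. The gene lies at chr17:35199381-35202007 on the minus strand (GRCm38), between Ltb (chr17:35194439-35196320) and Lta (chr17:35203165-35205351), with 3060 bases to Ltb and 1157 bases to Lta. In B16-Ova its level was 149 CPM in CD4 cells (136 to 162), 70.0 CPM in Treg cells, 45.5 CPM in innate-like cells and 34.2 CPM in CD8 cells (31.5 to 37.1). In MC38-Ova it was 94.8 CPM in CD8 cells (90.6 to 99.0), 90.5 CPM in CD4 cells (81.6 to 100.1), 56.5 CPM in Treg cells and 46.0 CPM in innate-like cells. CD8 cells thus held the lowest level in B16-Ova and shared the highest with CD4 cells in MC38-Ova, where the ratio of those 2 classes, 1.05 (0.94 to 1.17), did not exceed counting error. The tumour ratio was 2.77 (2.52 to 3.04) in CD8 cells, and 1.94 to 2.95 over 8 alternatives. It was 0.61 (0.53 to 0.70) in CD4 cells, 0.81 in Treg and 1.01 in innate-like cells. The ratio in CD4 cells was 0.56 to 0.72 over 8 alternatives, so not past 1.5-fold in each. No class passed the edgeR test (adjusted p 0.91 in CD8, 0.71 in Treg, 0.28 in innate-like and 0.19 in CD4 cells). In CD4 cells, 1.01 ± 0.35 (log2, SE) above the other classes, Tnf passed in 2 of 10 alternatives (adjusted p 0.0042 to 0.46).

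Much of the Tnf in MC38-Ova CD8 cells lay in few cells, but its level was above that of B16-Ova in each gate below. After thinning each cell to 2000 UMIs, 7.77% (6.55 to 9.13) of B16-Ova and 11.1% (9.92 to 12.5) of MC38-Ova CD8 cells had a Tnf UMI (20.7% and 28.3% unthinned). Cells with 5 or more Tnf UMIs were 13 of 1792 in B16-Ova and 79 of 2544 in MC38-Ova, and held 16.8% and 49.4% of the Tnf UMIs. The most in 1 cell was 21 UMIs in B16-Ova and 105 UMIs in MC38-Ova. CD8 cells were divided by other transcripts into granzyme F/C (2 or more UMIs of Gzmf and Gzmc), Ifng-high (5 or more Ifng), naive-like (2 or more Ccr7 and Dapl1) and other cells. In Ifng-high cells Tnf stood at 56.1 CPM (46.8 to 66.8) in B16-Ova and 297 CPM (279 to 315) in MC38-Ova. In naive-like cells it was 27.0 and 35.6 CPM, in granzyme F/C cells 21.4 and 87.1 CPM, and in the other cells 36.8 and 53.7 CPM. The 343 Ifng-high cells of MC38-Ova held 1055 of the 1984 Tnf UMIs, and the 163 of B16-Ova 127 of 590. Their median depths were 9119 and 11770 UMIs, so a gate on raw UMIs took deeper cells in B16-Ova. Without cells that held other cells' markers the Tnf ratio in CD8 cells was 2.83. In CD4 cells it was 0.66 on that condition. The part of free RNA in the ratios was not tested.

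**Figure D3:**
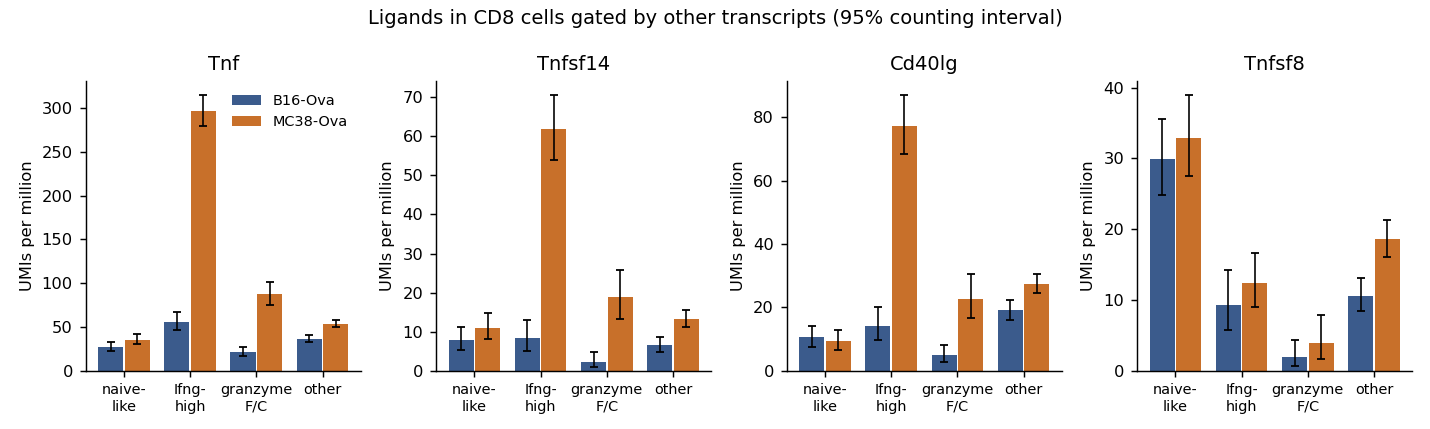
Level of Tnf, Tnfsf14, Cd40lg and Tnfsf8 (CPM) in CD8 cells divided by other transcripts, for B16-Ova (blue) and MC38-Ova (orange). Bars are sums over the cells of 1 pool and whiskers exact 95% counting intervals. Ifng-high cells of MC38-Ova have the tallest bars for Tnf (297 CPM), Tnfsf14 (61.9 CPM) and Cd40lg (77.4 CPM), and naive-like cells have the tallest for Tnfsf8 in both pools.

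Tnfsf14 (LIGHT, chr17:57189492-57194177) engages Tnfrsf14 (HVEM) on lymphocytes and Ltbr on stroma, and was the ligand with the fewest UMIs. CD8 cells held 6.39 CPM (5.25 to 7.70) in B16-Ova and 21.6 CPM (19.6 to 23.7) in MC38-Ova, a ratio of 3.38 (2.74 to 4.20). CD4 cells held 11.6 and 10.0 CPM, innate-like cells 12.0 and 8.66 CPM, and Treg cells 3.13 and 4.05 CPM. CD8 cells were thus below CD4 cells in B16-Ova and above them in MC38-Ova. Treg cells were lower than the other classes by edgeR, with a log2 difference of −1.74 ± 0.48 (adjusted p 0.046), which did not hold in 5 of 10 alternatives (adjusted p 0.0038 to 0.22). Like Tnf, it was highest in Ifng-high CD8 cells of MC38-Ova, 61.9 CPM (54.0 to 70.6), against 8.40 CPM (5.05 to 13.1) in those of B16-Ova. Both ligands also met in the same cells of MC38-Ova: 11.5% (7.94 to 15.9) of thinned CD8 cells with a Tnf UMI had a Tnfsf14 UMI, against 2.46% (1.85 to 3.21) of those without. In B16-Ova these shares were 0.75% (0.02 to 4.09), a single cell, and 1.32%.

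The sequences before the start sites of Tnf and Tnfsf14 are shown beside that of Ltb, which neighbours Tnf and had another pattern. Cd40lg, at 77.4 CPM also above Tnfsf14 in Ifng-high CD8 cells of MC38-Ova, had no promoter in the set used and could not be shown. Each is the 250 bases before the annotated start, 5′ to 3′ on the gene's strand, from RefSeq (GRCm38.p6), at chr17:35202008-35202257 (minus strand), chr17:57194182-57194431 (minus strand) and chr17:35194257-35194506 (plus strand). Capitals mark motifs found on either strand. Those searched were GGAAA (the core of NFAT sites), TGANTCA (AP-1), TGACGTCA (the cyclic AMP response element, CRE), TATAAA (the TATA box) and the degenerate kappa B site.
Tnf: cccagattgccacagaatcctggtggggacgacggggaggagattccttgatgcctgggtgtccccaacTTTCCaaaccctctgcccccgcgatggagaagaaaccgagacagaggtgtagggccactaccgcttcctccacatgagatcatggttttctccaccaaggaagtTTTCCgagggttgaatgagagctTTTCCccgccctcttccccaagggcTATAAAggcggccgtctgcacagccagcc
Tnfsf14: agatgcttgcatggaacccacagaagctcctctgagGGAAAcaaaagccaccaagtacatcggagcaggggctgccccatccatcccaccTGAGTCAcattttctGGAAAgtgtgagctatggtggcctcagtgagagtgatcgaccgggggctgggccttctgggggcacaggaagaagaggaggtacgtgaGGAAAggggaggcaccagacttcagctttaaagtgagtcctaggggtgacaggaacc
Ltb: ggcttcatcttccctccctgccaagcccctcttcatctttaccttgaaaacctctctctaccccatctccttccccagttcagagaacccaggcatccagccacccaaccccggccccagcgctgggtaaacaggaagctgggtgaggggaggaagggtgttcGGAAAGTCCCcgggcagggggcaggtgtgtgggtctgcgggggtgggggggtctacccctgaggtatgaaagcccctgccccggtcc
In the windows searched, 300 bases with 50 after the start, Tnf had 3 NFAT cores and a TATA box, Tnfsf14 had 4 NFAT cores (3 within the bases printed) and 1 AP-1 motif, and Ltb had 1 NFAT core that overlaps a kappa B site. A promoter was found for 7 of the 8 ligands, all but Cd40lg, and each of the 7 had 1 to 4 NFAT cores. Of 32851 promoters of the same length, 61.3% held an NFAT core, 7.81% an AP-1 motif, 13.6% a TATA box, 8.46% a kappa B site and 1.79% a CRE, so the NFAT core is common in windows of this size. These are matches of letters and not measured binding.

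Ltb joins Lta in the membrane-bound lymphotoxin heterotrimer, which signals through Ltbr in lymphoid tissue. It was detected in most cells: 83.7% to 92.4% of a class and pool had a UMI. Treg cells had the highest level, 1028 CPM (1002 to 1054) in B16-Ova and 878 CPM (856 to 900) in MC38-Ova. CD4 cells followed with 822 and 701 CPM. CD8 cells came last in B16-Ova (483 CPM) and innate-like cells last in MC38-Ova (558 CPM), with 643 CPM in CD8 cells of MC38-Ova and 637 CPM in innate-like cells of B16-Ova. Treg cells were higher than the other classes, by 0.49 ± 0.12 (log2, SE; edgeR adjusted p 0.030), and the call held in 10 of 10 alternatives. The tumour ratio was 1.33 (1.29 to 1.37) in CD8 cells and 0.85 to 0.88 in the other 3 classes, under 1.5-fold in each. The top 10% of cells held 29.9% to 34.3% of the Ltb UMIs, where for Tnf they held 63.8% to 79.1%. This share depends on how many UMIs a ligand has, and Ltb had the most. It therefore cannot compare how evenly the ligands were spread.

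The death ligands Fasl and Tnfsf10 differed in their class pattern. Fasl (chr1:161780689-161788495), the ligand of the death receptor Fas and a tool of cytotoxic lymphocytes, stood at 112 CPM (107 to 117) and 108 CPM (104 to 113) in CD8 cells of B16-Ova and MC38-Ova. CD4 cells held 121 CPM (110 to 133) and 79.3 CPM (71.0 to 88.3), innate-like cells 96.1 and 86.2 CPM, and Treg cells 31.2 and 27.9 CPM. By edgeR, CD8 cells were higher than the other classes by 0.86 ± 0.11 (log2, SE; adjusted p 0.0047) and innate-like cells by 0.50 (adjusted p 0.027), while Treg cells differed by −1.85 ± 0.13 (adjusted p 0.00014). The call in innate-like cells was lost without the term for the pool (0.090), and held in the other 9 of 10 alternatives (down to 0.0052). In CD4 cells the difference of 0.49 ± 0.12 did not pass (adjusted p 0.074), and passed in 7 of 10 alternatives (adjusted p 0.021 to 0.21). The tumour ratio was 0.96 (0.91 to 1.03) in CD8 and 0.65 (0.57 to 0.76) in CD4 cells. The ratio in CD4 cells was 0.56 to 0.69 over 8 alternatives, so not past 1.5-fold in each. Within CD8 cells Fasl was lowest in naive-like cells, 43.0 CPM in B16-Ova and 60.7 CPM in MC38-Ova, and 109 to 145 CPM in the other gates. Of B16-Ova CD4 cells, those with 2 or more Ifng UMIs held 158 CPM (133 to 186) of Fasl and 264 CPM (232 to 300) of Tnf. In the CD4 cells of that pool in neither the Ifng gate nor the type 2 gate (2 or more UMIs of Il4, Il5 and Il13), the levels were 111 and 109 CPM.

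Tnfsf10 (TRAIL, chr3:27317028-27342427), which binds the death receptor Tnfrsf10b in mice, differed little between the classes of a pool. The 4 classes lay between 25.4 and 33.6 CPM in B16-Ova and between 23.3 and 26.2 CPM in MC38-Ova, and no neighbours in either order differed beyond counting error. The highest and lowest class were not compared. In B16-Ova these were Treg (29.0 to 38.7 CPM) and CD4 cells (20.4 to 31.1 CPM). No class contrast passed (edgeR, log2 differences of −0.23 to 0.19, adjusted p 0.36 to 0.96). Its tumour ratio was 0.71 (0.57 to 0.87) in Treg, 0.80 (0.70 to 0.91) in CD8, 0.87 in innate-like and 0.95 in CD4 cells.

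Cd40lg, Tnfsf11 and Tnfsf8 were the ligands of CD4 cells. Cd40lg (chrX:57212143-57224042) binds CD40 on B cells, dendritic cells and macrophages and is the classical helper signal. CD4 cells held 235 CPM (220 to 252) in B16-Ova and 174 CPM (161 to 187) in MC38-Ova. Treg cells held 57.8 and 46.4 CPM, CD8 cells 13.9 and 31.95 CPM, and innate-like cells 28.2 and 13.8 CPM. CD4 cells were higher than the other classes by 2.75 ± 0.30 (log2, SE; edgeR adjusted p 0.0063), which held in 10 of 10 alternatives. Innate-like cells differed by −1.58 (edgeR adjusted p 0.039), which held in 8 of 10 (adjusted p 0.0012 to 0.092). In CD8 cells the difference of −1.28 did not pass (adjusted p 0.062), but passed in 4 of 10 alternatives (0.0035 to 0.12), among them the one without cells that held other cells' markers (0.015). The tumour ratio was 2.30 (1.98 to 2.68) in CD8 cells, 0.74 (0.67 to 0.82) in CD4, 0.80 in Treg and 0.49 (0.35 to 0.69) in innate-like cells. In MC38-Ova CD8 cells it followed Tnf: 77.4 CPM (68.5 to 87.1) in Ifng-high cells against 9.28 to 27.3 CPM in the other gates. In Ifng-high cells of B16-Ova it stood at 14.1 CPM (9.67 to 20.0). Thinned MC38-Ova CD8 cells with a Tnf UMI had a Cd40lg UMI in 10.4% (7.0 to 14.6), against 4.92% (4.05 to 5.92) of those without, and in B16-Ova the shares were 2.24% and 2.45%.

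Tnfsf11 (RANKL, chr14:78277445-78308043) drives osteoclasts through Tnfrsf11a and also acts on dendritic cells. CD4 cells held 117 CPM (106 to 128) in B16-Ova and 205 CPM (192 to 219) in MC38-Ova, Treg cells 27.8 and 47.7 CPM, CD8 cells 21.8 and 31.0 CPM, and innate-like cells 17.4 and 10.8 CPM. By edgeR, CD4 cells were higher by 2.67 ± 0.19 (log2, SE; adjusted p 0.0016) and innate-like cells differed by −1.93 (adjusted p 0.0034), and both held in 10 of 10 alternatives. The tumour ratio was 1.76 (1.56 to 1.98) in CD4, 1.71 (1.41 to 2.08) in Treg, 1.42 in CD8 and 0.62 (0.41 to 0.95) in innate-like cells, the last from 100 UMIs in all. Without cells that held other cells' markers it was 1.91 in CD4 and 1.55 in CD8 cells. The ratio in innate-like cells was 0.46 to 0.82 over 8 alternatives, so not past 1.5-fold in each. After thinning, 14.7% (12.1 to 17.7) of B16-Ova and 25.0% (21.7 to 28.6) of MC38-Ova CD4 cells had a Tnfsf11 UMI. Cells with 5 or more were 23 of 753 and 64 of 736. Within CD4 cells the Ifng gate was lower in Tnfsf11 than the cells in neither gate, 62.5 CPM (47.4 to 81.0) against 134 CPM (120 to 149) in B16-Ova and 129 CPM (106 to 156) against 220 CPM (203 to 237) in MC38-Ova. Tnf had the opposite order in both pools, with 156 CPM in the Ifng gate and 61.7 CPM in neither gate in MC38-Ova. The type 2 gate held 35 cells in MC38-Ova, with Tnfsf11 at 264 CPM (210 to 326) and Cd40lg at 298 CPM (241 to 364), and 9 cells in B16-Ova. In Treg cells, second to CD4 cells in the level of both ligands in both pools, Cd40lg and Tnfsf11 also met in the same cells. Of thinned cells with a Cd40lg UMI, 17.2% (8.59 to 29.4) in B16-Ova and 16.9% (9.31 to 27.1) in MC38-Ova had a Tnfsf11 UMI, against 2.58% (1.48 to 4.16) and 7.37% (5.63 to 9.45) of those without. Klrg1+ Treg cells held 19.1 and 27.9 CPM of Tnfsf11 and the other Treg cells 38.0 and 67.3 CPM.

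Tnfsf8 (CD30 ligand, chr4:63831308-63861347) binds Tnfrsf8 (CD30). CD4 cells held 62.9 CPM (55.0 to 71.6) in B16-Ova and 65.0 CPM (57.5 to 73.2) in MC38-Ova, innate-like cells 33.9 and 36.2 CPM, Treg cells 15.5 and 16.2 CPM, and CD8 cells 13.6 and 18.8 CPM. The last pair did not differ beyond counting error in either pool. Of the 8 ligands it was the only one to pass in all 4 class contrasts. CD4 cells were higher by 1.55 ± 0.11 (adjusted p 0.0016) and innate-like cells by 0.55 (adjusted p 0.023), while Treg cells differed by −1.15 (adjusted p 0.0011) and CD8 cells by −0.95 (adjusted p 0.0050; edgeR, log2). The call in innate-like cells held in 8 of 10 alternatives (adjusted p 0.0090 to 0.18), and the other 3 in 10 of 10. The tumour ratio was 1.03 in CD4, 1.05 in Treg, 1.07 in innate-like and 1.39 in CD8 cells. In CD8 cells Tnfsf8 was highest in the naive-like gate, 29.9 CPM (24.9 to 35.6) and 32.8 CPM (27.5 to 39.0), and lowest in granzyme F/C cells, 1.98 CPM (0.73 to 4.31) and 3.96 CPM (1.71 to 7.80).

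The ligands were next compared across surface PD-1, Tim-3 and L-Pha, by the top against the bottom quartile of each tag's UMIs within a class and pool. A ligand was counted where it passed 1.5-fold the same way in both pools with at least 50 UMIs in each, and with 1 pool per tumour there is no test. RNA depth was higher in the top quartile of each tag, for L-Pha in CD8 cells with medians of 5391 and 13931 UMIs in the bottom and top quartile of B16-Ova (4916.5 and 10617.5 in MC38-Ova), and CPM does not remove differences between cells of unlike depth. With PD-1, 1 of 8 ligands passed in CD8 cells (6.18% of all genes passed), 1 of 7 in CD4 (1.10%), and none of 7 in Treg (0.607%) or of 2 in innate-like cells (0.436%). With Tim-3, 1 of 8 passed in CD8 (5.06%), 1 of 6 in CD4 (0.756%), and none of 6 in Treg (1.09%) or of 2 in innate-like cells (0.552%). With L-Pha, 4 of 8 passed in CD8 (7.39%), 5 of 7 in Treg (7.84%), 1 of 7 in CD4 (6.29%) and none of 3 in innate-like cells (3.52%).

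Tnfsf8 was the ligand lower in PD-1-high and Tim-3-high CD8 cells. The bottom and top PD-1 quartiles held 25.7 and 8.67 CPM in B16-Ova (ratio 0.34, 0.24 to 0.48), and 34.9 and 10.5 CPM in MC38-Ova (0.30, 0.22 to 0.40). Across Tim-3 quartiles the ratios were 0.24 (0.16 to 0.35) and 0.45 (0.33 to 0.60). With quartiles taken within deciles of RNA depth, Tnfsf8 had ratios of 0.37 and 0.46 for Tim-3 and of 0.70 and 0.33 for PD-1. The PD-1 value of B16-Ova was then short of 1.5-fold, and Fasl passed in its place, 1.60 and 1.501 times higher in PD-1-high CD8 cells. In CD4 cells Tnfsf8 was lower in Tim-3-high cells, with ratios of 0.42 (0.27 to 0.64) and 0.56 (0.39 to 0.79). Tnfsf10 in CD4 cells was higher with PD-1, 1.66 (0.91 to 3.12) and 1.77 (0.94 to 3.51), within counting error in each pool. The other ligands of CD8 cells did not go the same way past 1.5-fold. Tnfsf11, for example, was 2.60 times higher in PD-1-high CD8 cells of B16-Ova, with 31.0 against 11.9 CPM, and 1.16 times in MC38-Ova. Fasl was 1.28 and 1.31 times higher.

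The L-Pha-high cells held less of several ligands. In CD8 cells Tnfsf8 stood at 33.1 CPM in the bottom and 4.69 CPM in the top quartile of B16-Ova (ratio 0.14, 0.09 to 0.21), with 26.3 and 12.6 CPM in MC38-Ova (0.48, 0.35 to 0.64). The Tnf ratios were 0.58 and 0.59. Cd40lg had ratios of 0.55 and 0.42, and Tnfsf14 of 0.32 and 0.61. Fasl was not lower, with ratios of 1.51 (1.29 to 1.78) and 1.10 (0.97 to 1.25), and 2.25 and 1.42 within deciles of RNA depth. Within deciles of RNA depth the Tnf ratio turned to 1.22 in B16-Ova, beside 0.47 in MC38-Ova. The Ltb ratio, 0.77 (0.72 to 0.82) in B16-Ova and 0.93 (0.89 to 0.98) in MC38-Ova, turned to 1.08 and 1.07. Of the 4 ligands counted, 2 were then still past 1.5-fold in both pools, Tnfsf8 (0.22 and 0.54) and Tnfsf14 (0.58 and 0.50). In Treg cells the 5 ligands were Cd40lg (0.32 and 0.29), Tnfsf11 (0.24 and 0.48), Tnfsf8 (0.24 and 0.46), Fasl (0.38 and 0.45) and Tnf (0.60 and 0.47). Within depth deciles the same 5 ratios lay between 0.22 and 0.66. Cd40lg in Treg cells stood at 135, 49.1, 44.1 and 43.3 CPM over the 4 quartiles of B16-Ova, bottom first, and at 103, 41.1, 47.5 and 30.3 CPM in MC38-Ova, so the largest step came after the bottom quartile. In CD4 cells Cd40lg passed, with 319 and 156 CPM in the bottom and top quartiles of B16-Ova (0.49, 0.40 to 0.60), and 258 and 94.8 CPM in MC38-Ova (0.37, 0.30 to 0.46).

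**Figure D4:**
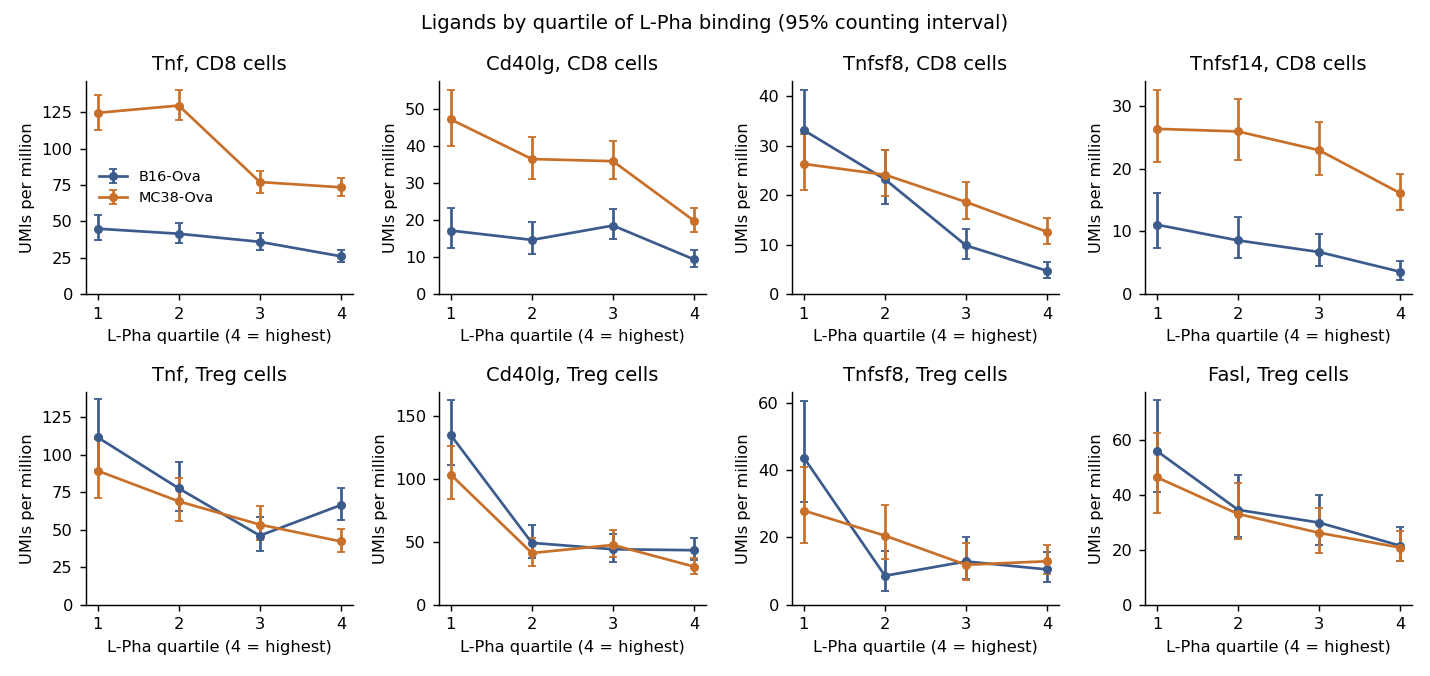
Level of ligands (CPM) by quartile of bound L-Pha in CD8 cells (top row) and Treg cells (bottom row), for B16-Ova (blue) and MC38-Ova (orange). Points are sums over the cells of a quartile in 1 pool and whiskers exact 95% counting intervals. Tnfsf8 in B16-Ova CD8 cells goes from 33.1 to 4.69 CPM, and Cd40lg in Treg cells is highest in the bottom quartile of both pools (135 and 103 CPM).

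Across 32 sums of class, pool and PD-1 quartile, the ligands formed loose groups (Pearson correlation of log2(CPM + 1), a description without a test, since the sums share 1 capture and differ in class, depth and number of cells). Cd40lg and Tnfsf11 were closest to each other, with r = 0.87, and Tnf was closest to Cd40lg, with r = 0.79. Fasl and Ltb went in opposite directions, with r = −0.62. Among 5389 genes with a mean of at least 20 CPM, the genes most like Cd40lg were Ramp3 (0.91), Tnfsf11 and Cd28 (0.86), and those most like Tnfsf11 were Ramp3 (0.94), Cd40lg and Furin (0.87). The genes most like Fasl were Gm14029 (0.94), Cd226 (0.93) and Sema4a (0.92), and those most like Ltb were Itgb7 (0.93), Picalm (0.90) and Shisa5 (0.90). Tnf was most like Gabarapl2 (0.88), Laptm5 (0.84) and Egr1 (0.83), and Tnfsf8 most like Asap1 (0.88), Dusp10 (0.86) and Smarca2 (0.84). For Tnfsf10, whose level varied least, no gene passed 0.63 (Cetn2, Meaf6 and Gm45716).

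Other genes of the pathway came from 3 lists. Of 10 other ligands, 5 were tested between classes by edgeR, and 1 passed in CD8, Treg and innate-like cells each, where 8.71%, 15.9% and 15.3% of all genes passed. Tnfsf13b (BAFF, a B cell survival factor) was higher in CD8 cells (2.32 ± 0.34, log2; adjusted p 0.0087) and lower in Treg cells (−2.17, adjusted p 0.028), the latter not called by DESeq2. The Tnfsf13b levels were low, 5.51 CPM in CD8 cells against 1.27 CPM in the other classes, and 0.59 CPM in Treg cells. In CD8 cells Tnfsf13b stood at 8.24 CPM in B16-Ova and 2.77 CPM in MC38-Ova. Tnfsf9 (4-1BB ligand) was lower in innate-like cells (−0.77, adjusted p 0.039). Between tumours, 5 of the list had 100 UMIs in CD8 cells, and each passed 1.5-fold, beside 11.2% of all genes. The 100 UMIs are those of both pools together, so a ligand low in 1 pool could enter through the other. The count is therefore not independent of the difference it counts. Lta, which forms the lymphotoxins with Ltb, went from 12.7 to 24.8 CPM (ratio 1.96, 1.67 to 2.31), the same direction as its neighbour Tnf, and Tnfsf9 from 16.6 to 28.8 CPM (1.74). Tnfsf4 (OX40 ligand) went from 14.6 CPM in B16-Ova to 1.67 CPM in MC38-Ova (0.11, 0.08 to 0.16) and Cd70 from 6.33 to 1.39 CPM (0.22). Of these 5 ligands, 2 were higher in CD8 cells of MC38-Ova and 3 lower, with 1 pool per tumour and no test.

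Of 11 receptors of these ligands, 8 were tested between classes. Treg cells had 2 higher and none lower by edgeR, beside 15.9% of all genes called (0 lower at an unadjusted p under 0.05 and by DESeq2): Tnfrsf8, the receptor of the Tnfsf8 ligand that Treg cells had little of, by 3.72 ± 0.41 (log2; adjusted p 0.00098; 15.95 CPM against 1.67 CPM), and Tnfrsf1b, the second Tnf receptor, by 1.09 ± 0.09 (adjusted p 0.00032; 170 CPM against 74.7 CPM). CD8 cells had 2 lower, beside 8.71% of genes, Tnfrsf10b (−0.98) and Tnfrsf1b (−0.41). Innate-like cells had Tnfrsf1a higher (0.50) and Tnfrsf8 (−3.16) and Tnfrsf1b (−0.44) lower, beside 15.3% of genes, and DESeq2 called 2 receptors lower and 0 higher there. Between tumours, Tnfrsf10b was 1.51 times higher in MC38-Ova Treg cells (1.13 to 2.04), and Fas in innate-like cells stood at 40.9 CPM in B16-Ova and 25.6 CPM in MC38-Ova (0.63).

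All 25 genes of signalling and shedding were tested. In Treg cells 8 were higher and 1 lower by edgeR, beside 15.9% of all genes called, with Adam17, the protease that sheds TNF (0.64 ± 0.09, adjusted p 0.0031), and Cflar, an inhibitor of caspase-8 (0.53, adjusted p 0.017), at the top, and Map3k14, the kinase of the non-canonical NF-κB route, lower (−0.70). By DESeq2, 6 were higher and 0 lower, so the Map3k14 call was lost. In CD8 cells Birc3 (−0.76) and Relb (−0.43) were lower (2 of 25, beside 8.71% of genes; 5 by DESeq2), and in innate-like cells Adam17 (−0.53) and Nfkb2 (−0.37) (2 of 25, beside 15.3%; 1 by DESeq2). In CD4 cells none of the 3 lists had a call by edgeR, beside 2.43% of genes. At an unadjusted p under 0.05, 3 other ligands and 6 signalling genes were higher and 1 receptor lower there, and DESeq2 called 1 other ligand and 2 signalling genes higher. For the 3 lists, shares of all genes are given for edgeR's adjusted calls only, not for DESeq2 or unadjusted p. Between tumours 2 of 25 genes of this list passed 1.5-fold in Treg cells (8.54% of all genes), 2 of 24 in CD4 (6.39%) and 3 of 24 in innate-like cells (5.92%), each lower in MC38-Ova: Traf1 (0.64) and Nfkb2 (0.65) in Treg cells, Zfp36 (0.51), which speeds decay of Tnf transcripts, and Tnfaip3 (0.62) in CD4 cells, and 3 in innate-like cells with Nfkbia (0.51) and Tnfaip3 (0.62) lowest. In CD8 cells none of the 25 passed, and the median ratio was 1.01.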

How the data were processed

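RNA, hashtag and antibody-tag UMI counts of 1 capture (3 libraries; that of T cell receptors is not analysed here) were taken as raw UMI counts per barcode, as deposited by the authors. Cell Ranger 3.1.0, mm10, R 3.6.1 and Seurat 3.1.0 are named in the submitters' processing notes with no role given. Other filters before deposit are not given in the sources used here. The members and lists were chosen with earlier results of these data known.

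Cells and pools followed the thresholds of the report. CD8 cells had 2 or more UMIs of Cd8a and Cd8b1 together and 0 of Cd4 and Foxp3. Treg cells had 1 or more Foxp3 UMIs and 0 of Cd8a and Cd8b1. CD4 cells had 1 or more Cd4 UMIs and 0 of Foxp3, Cd8a and Cd8b1. Innate-like cells had a Cd3e UMI and 2 or more of Fcer1g and Tyrobp together. They had 0 of Cd4 and Foxp3 and fewer than 2 of Cd8a and Cd8b1 together. No doublet caller was run, and barcodes whose hashtags failed the ratio of 3 were dropped. UMIs were summed per class and pool in Python 3.11.15 (numpy 2.4.6, scipy 1.17.1). Class contrasts used edgeR 4.0.16 (TMM, filterByExpr, quasi-likelihood F-test, 3 residual degrees of freedom, SE as the log2 difference over the square root of F). DESeq2 1.42.0 was an alternative, and limma 3.58.1 is its dependency in R 4.3.3. On simulated counts for CD8 cells against the other classes (10910 genes tested) the test recovered 74% of 2-fold and 98% of 4-fold changes, and 6.52% of calls were false. Each simulated gene had the spread fitted for its level, not its own. Pools were alike, and so were classes except for the changed genes. The shares therefore do not give the power for a single ligand, whose spread can be wider. Ratios between pools or quartiles have exact conditional binomial intervals, CPM exact Poisson and shares Clopper-Pearson intervals, all at 95% and for counting error only.

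Named genes of a list were the 2 with the largest change in each direction among those called in a class or tumour contrast, and for each ligand the 3 genes with the highest correlation (those of Tnfsf14 are not reported here). Tnfrsf6b was not among the measured features. Gene coordinates are from GENCODE vM21 (GRCm38, mm10), matched by gene ID. Promoters are RefSeq windows of GRCm38.p6. The kappa B site was searched as its usual 10-base degenerate form. Alternatives changed the hashtag rule, class rule, depth, mitochondrial filter, averaging, tag scale and groups, normalization, tool, filter and block. Leaving out cells with other cells' markers was chosen after seeing the data.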

Additional observations from a re-analysis of the deposited data

Results flagged for a closer look

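Some ligands moved in opposite directions between groups under the same contrast, with counting intervals on opposite sides of 1. None of these differences was tested, since each tumour is 1 pool. Between tumours (MC38-Ova over B16-Ova), the Tnf ratio was 2.77 in CD8 and 0.61 in CD4 cells. The Cd40lg ratio was 2.30 in CD8 and 0.49 in innate-like cells. The Tnfsf11 ratio was 1.71 in Treg and 1.76 in CD4 cells against 0.62 in innate-like cells.

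Between tag quartiles (top over bottom), the 2 pools went opposite ways in 5 places. For Cd40lg with PD-1 in Treg cells the ratio was 0.62 (B16-Ova) against 2.47 (MC38-Ova). The Tnfsf11 ratio with PD-1 in CD4 cells was 1.47 and 0.76. The Tnf ratio with Tim-3 was 0.68 and 1.25 in CD8 cells, and 0.57 and 1.70 in CD4 cells. The Ltb ratio with L-Pha in Treg cells was 1.16 and 0.76. With quartiles taken within deciles of RNA depth, the opposite directions were gone for Tnfsf11 with PD-1 (1.46 and 1.02), and Tnf with Tim-3 in CD8 cells became 0.999 and 1.34. Cd40lg with PD-1 became 0.85 and 2.76, Tnf with Tim-3 in CD4 cells 0.62 and 1.43, and Ltb with L-Pha 1.39 and 0.84.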

How the results depend on the processing

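Of 256 tumour ratios under alternatives 30 moved by more than their counting interval, and none of the 9 past 1.5-fold turned to the other side of 1. Some of the 9 fell short of 1.5-fold in at least 1 alternative. These were Tnf (up to 0.72) and Fasl (up to 0.69) in CD4 cells, and Tnfsf11 in innate-like cells (up to 0.82). The count of ligands past 1.5-fold in innate-like cells became 1, from 2, without the deepest 10% of cells and as a mean over cells. Of 768 tag ratios under alternatives, 3 that had counted as past 1.5-fold in both pools turned to the other side of 1: Tnf with L-Pha in B16-Ova CD8 cells (1.22, quartiles within deciles of RNA depth), and, per own-hashtag UMI, Tnfsf10 with PD-1 (0.59) and Tnfsf8 with Tim-3 (1.07) in B16-Ova CD4 cells. Among the 90 tag ratios whose counting interval left out 1, more crossed 1: 12 within depth deciles, 15 per own-hashtag UMI, 4 in terciles and 2 with stricter hashtags. Tag counts that moved by over 1.5 times were those of L-Pha in CD8 cells (4 to 2 within depth deciles and in terciles, 1 with stricter hashtags), L-Pha in CD4 cells (1 to 2 within depth deciles, per own-hashtag UMI and with stricter hashtags), PD-1 in Treg cells (0 to 2 per own-hashtag UMI), PD-1 in CD4 cells (1 to 0 in terciles, per own-hashtag UMI and with stricter hashtags) and Tim-3 in CD4 cells (1 to 0 per own-hashtag UMI). The causes were not tested, and shares of all genes are not given for the counts under alternatives.

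Class counts by edgeR moved by over 1.5 times as follows: higher in CD8, 1 to 2 with no filter; lower in CD8, 1 to 4 without the deepest cells or without cells with other cells' markers, and 3 thinned or with no filter; higher in CD4, 3 to 5 thinned or with no filter; higher in innate-like, 2 to 1 thinned, by DESeq2 or with no term for the pool; lower in innate-like, 2 to 4 thinned, and 1 with stricter hashtags or no term for the pool. Smaller moves were 3 to 4 higher in CD4 (5 alternatives, DESeq2 among them) and 3 to 2 lower in Treg (5 alternatives, where Tnfsf14 was lost). For these class counts too, shares of all genes are not given under the alternatives. No class contrast that passed changed direction. Taken in 1 pool alone the contrasts are values with no test. The class contrasts are paired by pool, and the labels give no other pairing. Depth limits Tnfsf14 most, with 18 to 44 UMIs in each sum outside CD8 cells.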
